A study of Mus musculus with 4 samples.

Results

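The genes described here encode the proteins of the cytosolic ribosome, and their messenger RNA was measured in the mouse hippocampus on day 1 after a leg fracture. Members were taken by symbol from the deposited gene table. A protein-coding row belonged when its symbol had the form of a cytosolic large subunit (Rpl) or small subunit (Rps) protein, which selected 82 of 29300 genes, 50 of the large and 32 of the small subunit. The rule itself used no expression value. RNA came from 2 control mice and 2 surgery mice, all male C57BL/6 animals of 7 to 8 months. Every mouse received isoflurane anesthesia and tramadol analgesia, control mice had no operation, and surgery mice also had a tibial fracture with intramedullary nailing, a model of perioperative neurocognitive disorder. Each library came from 1 hippocampal sample enriched for poly(A) RNA with oligo(dT) beads.

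Ribosomal proteins assemble with ribosomal RNA into a small subunit, which reads the mRNA, and a large subunit, which joins the amino acids. Most of them are needed in equal numbers in each ribosome, and their mRNAs are among the most abundant of many cell types. Many of these mRNAs begin with a terminal oligopyrimidine tract (TOP), a run of C and T at the transcript start through which mTORC1 signaling and the RNA-binding protein Larp1 control their translation and stability. In neurons, ribosomes also work in dendrites and axons, and new protein synthesis is needed for lasting memory.

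Start sites of 6 members are shown because these genes changed after surgery and their annotated starts differ in the pyrimidine run. Each line gives the 15 bases before and the 15 bases from the start on, 5′ to 3′ in the direction of the gene, from RefSeq on GRCm38.p6. Capitals mark a run of at least 8 pyrimidines (C or T), and a line without capitals holds no such run.
Rpl38 (chr11:114668565-114668594, plus strand, lower after surgery): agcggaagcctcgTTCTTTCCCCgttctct
Rps18 (chr17:33955651-33955680, minus strand, lower): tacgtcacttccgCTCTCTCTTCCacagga
Rps21 (chr2:180257364-180257393, plus strand, lower): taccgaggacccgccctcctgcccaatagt
Rpl37 (chr15:5116598-5116627, plus strand, lower): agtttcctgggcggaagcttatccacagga
Rps28 (chr17:33824548-33824577, minus strand, lower): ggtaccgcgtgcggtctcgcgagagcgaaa
Rps24 (chr14:24490663-24490692, plus strand, higher): cccgcgctggggTCCTTCCTTgcgcgttga
The RefSeq table held windows for 62 of the 82 members. A pyrimidine run stood in 28 of their 74 start windows (37.8%), compared with 3943 of all 32851 windows. Rps24 and Rps21 each have another annotated start, without such a run. A run was found in 13 of 34 windows of members that fell and in 13 of 35 windows of members that did not pass the threshold. The annotated start can lie some bases away from the start used in these cells, so these are letters in a window and not sites.

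Total counts ran from 15763432 to 18573386 per mouse. The count filter kept 17144 genes, 80 of them members. The tissue label was checked with marker genes. Summed markers of neurons were at 6607 to 6972 CPM (counts scaled to library size) in the 4 mice, and Prox1, Wfs1 and Fibcd1, which mark hippocampal fields, together at 525 and 517 CPM in control and 419 and 372 CPM in surgery mice. Summed choroid plexus markers, with Ttr in the lead, stood at 99.9 and 5248 CPM in the control mice and at 1962 and 3343 CPM in the surgery mice, and oligodendrocyte markers were at 3927 CPM in surgery mouse 2 against 5329 to 6183 CPM in the other mice. Protein-coding transcripts of the mitochondrial genome took 2.82% and 2.52% of counts in control and 4.44% and 4.48% in surgery mice. The part of these differences in the results below was not tested.

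Messenger RNAs of the cytosolic ribosome were mostly lower in the surgery mice, in both subunits and by a modest amount, while a few members were higher. Of the 48 large subunit members tested, 25 fell and 2 rose in surgery compared with control mice. Of the 32 small subunit members tested, 18 fell and 2 rose. Together 43 members fell (edgeR quasi-likelihood test, Benjamini-Hochberg adjusted p under 0.05), where 12.8% of all genes tested fell and 13.1% rose. With each library's trend in transcript length and GC content removed, 19 members were lower, against 1.48% of all genes tested, and 27 of the 43 calls were lost. Median log2 fold changes were -0.27 in the large and -0.29 in the small subunit, against 0.01 over all genes tested. The log2 fold change was negative in 37 large and 23 small subunit members, and in 49.1% of all genes tested. Both surgery mice lay below both control mice for 57 of the 80 members and above both for 11, where 32.2% and 33.2% of all genes tested were separated in this way.

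The calls of members depended on single mice. A fit without 1 mouse leaves 1 sample in a group. Calls over all genes in such fits are not given here, so the loss among members cannot be set against them. The median over each subunit stayed between -0.34 and -0.22 whichever mouse was left out, and 24 members remained lower in every such test. The 19 lower members that lost the call without at least 1 mouse had log2 fold changes between -0.39 and -0.20, and Rpl5 and Rps4x lost it whichever mouse was left out. Of the 4 higher members, Rps24 kept its call in every such test, and Rpl7 and Rpl29 lost it without control mouse 2 (log2 0.30 and 0.36). The tests measure the spread between 2 samples a group. In bulk tissue, fewer cells of a type and less RNA per cell cannot be told apart.

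The share of all counts taken by the members was 1.05% and 1.10% in control and 0.956% and 0.912% in surgery mice. The ratio of large to small subunit counts lay between 1.47 and 1.52 in the 4 mice, so the balance between the subunits moved far less than their level.

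**Figure D1:**
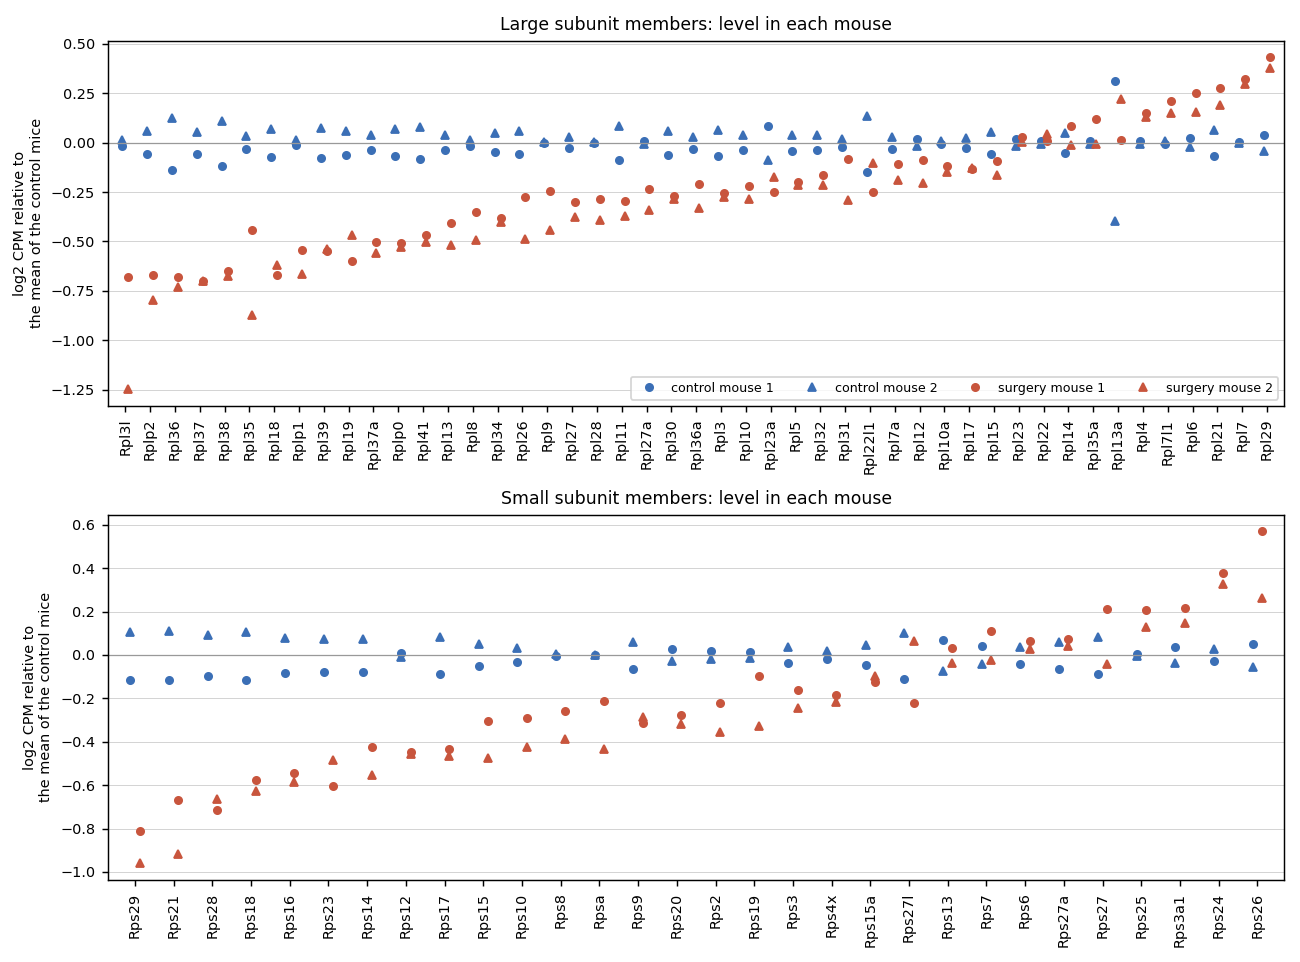
Level of 77 tested members in each mouse, as log2 CPM minus the log2 of the mean CPM of the control mice (y axis), with genes ordered by log2 fold change (x axis). Blue marks are control and red marks surgery mice, and both red marks lie under both blue marks for 55 of these members.

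The members did not change by equal amounts. The log2 fold changes of the 80 tested members had an SD of 0.32, compared with a median standard error (SE) of 0.07 for a single member. They ran from -0.93 for Rpl3l, a muscle paralog with few counts that did not pass the threshold, to 0.42 for Rps26.

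With the fold thresholds of the study (at least 1.5 or at most 0.67), 12 members were lower differentially expressed genes (DEGs), 7 of the large and 5 of the small subunit. Among all genes tested, 2.25% were lower and 6.75% were higher DEGs. Rises among the members reached at most 1.34-fold, under that threshold.

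Rps29 (chr12:69157722-69159186, mm10), a very short zinc-binding protein of the small subunit head, had the largest fall. It was at 69.3 and 81.0 CPM in control and at 42.8 and 38.6 CPM in surgery mice. Its fold change was 0.541 (log2 -0.89, SE 0.10, edgeR quasi-likelihood test with Benjamini-Hochberg adjustment, adjusted p = 0.00464). Both surgery mice were far below both control mice. Rps21 (chr2:180257377-180258445), another small protein of this subunit, was at 84.5 and 98.9 CPM in control and 57.6 and 48.5 CPM in surgery mice, and its log2 fold change was -0.79 (SE 0.11). Its control mice differed from each other by less than either differed from the surgery mice.

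Near the exit of the mRNA channel of the small subunit, Rps28 and Rps26 sit close to the mRNA, and Rpsa lies nearby. Rps28 was at 45.3 and 51.8 CPM in control and 29.6 and 30.7 CPM in surgery mice, with a log2 fold change of -0.69 (SE 0.10). Rpsa, which also occurs as the laminin receptor precursor, fell less, with a log2 fold change of -0.32 (SE 0.08), and its call was lost without control mouse 1 (-0.33), control mouse 2 (-0.32) or surgery mouse 2 (-0.21). Rps26 (chr10:128624534-128626747) went the other way. It was at 83.4 and 77.5 CPM in control and 120 and 96.4 CPM in surgery mice, a 1.34-fold rise (log2 0.42, SE 0.11, edgeR quasi-likelihood test with Benjamini-Hochberg adjustment, adjusted p = 0.0347). The surgery mice differed from each other more than the control mice did, and the groups did not overlap. Without surgery mouse 1 the log2 fold change of Rps26 was 0.25 and the call was lost. It was also lost without control mouse 2 (0.37), with no count filter (0.41) and with the trend in transcript length and GC content removed (0.38).

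Of the 5 members at the decoding site and mRNA entry, 3 fell. Rps23, which carries a loop into the decoding centre, was at 185 and 205 CPM in control and 128 and 139 CPM in surgery mice (log2 -0.54, SE 0.08). Rps2 and Rps15, which lie at the mRNA entry and in the head, had log2 fold changes of -0.29 (SE 0.07) and -0.39 (SE 0.08). Once the trend in transcript length and GC content, described below, was removed, Rps23 stayed past the threshold (-0.76), while Rps2 (-0.03) and Rps15 (-0.05) did not. Rps3, a head protein at the entry of the channel that also takes part in DNA repair, had a log2 fold change of -0.20 (SE 0.06) and did not pass the threshold. Rps27a, made as a fusion with ubiquitin, was at 85.4 and 93.1 CPM in control and 94.0 and 91.8 CPM in surgery mice, and its groups overlapped.

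Rps18, a head protein at the bridge to the large subunit, was at 115 and 134 CPM in control and at 83.5 and 80.8 CPM in surgery mice (log2 -0.60, SE 0.09). Other small subunit members did not pass the threshold. Rps6, the main phosphorylation target of S6 kinase in the ribosome, was at 199 and 210 CPM in control and 214 and 209 CPM in surgery mice. The log2 fold change was 0.05 (SE 0.06), and the groups overlapped. Rps19, which is often mutated in Diamond-Blackfan anemia, was at 71.3 and 70.0 CPM in control and 66.1 and 56.3 CPM in surgery mice (log2 -0.21, SE 0.09). Both surgery mice lay below both control mice, and its call appeared without surgery mouse 1 (log2 -0.34). In contrast, Rps24, a protein of the subunit body, rose from 144 and 150 CPM to 191 and 185 CPM (log2 0.35, SE 0.06), with both surgery mice above both control mice.

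All 3 members of the lateral stalk of the large subunit fell. The stalk recruits the elongation factors, with Rplp0 as its base and pairs of Rplp1 and Rplp2 as its arms. Rplp2 (chr7:141447370-141451585) was at 118 and 128 CPM in control and at 77.1 and 70.7 CPM in surgery mice (fold change 0.603, log2 -0.73, SE 0.08). Rplp1 (chr9:61913284-61914542) was at 325 and 331 CPM in control and at 225 and 207 CPM in surgery mice (log2 -0.60, SE 0.06). Rplp0, often used as a reference gene in quantitative PCR, was at 267 and 294 CPM in control and at 197 and 195 CPM in surgery mice (log2 -0.52, SE 0.07). Both mice of each group were close to each other for all 3 genes, and the groups were well apart. In Rplp1, 45.9% of the 75-base windows of its transcripts also occur in transcripts of another gene, so some of its reads could be assigned to copies or lost.

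Both tested members of the 5S particle, Rpl5 and Rpl11, fell by small amounts. They bind the 5S ribosomal RNA and, outside the ribosome, the p53 regulator Mdm2. Rpl5 was at 190 and 201 CPM in control and 170 and 168 CPM in surgery mice (log2 -0.21, SE 0.06). Rpl11 was at 130 and 147 CPM in control and 113 and 107 CPM in surgery mice (log2 -0.33, SE 0.08). The groups were separated for both genes. With the length and GC trend removed, Rpl5 remained past the threshold (-0.58) and Rpl11 did not (-0.18). Without control mouse 2, the values were -0.17 and -0.25, and both calls were lost.

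All 3 members near the peptidyl transferase centre and the P site, Rpl3, Rpl8 and Rpl10, also fell. Rpl3 was at 441 and 483 CPM in control and 387 and 382 CPM in surgery mice (log2 -0.27, SE 0.06). Rpl10, which closes the final step of large subunit maturation, was at 158 and 166 CPM in control and 139 and 133 CPM in surgery mice (log2 -0.25, SE 0.06). Rpl8 had the largest change of these members (log2 -0.42, SE 0.07). With the length and GC trend removed, all 3 calls were lost, with log2 fold changes of -0.11 for Rpl8, -0.15 for Rpl3 and -0.26 for Rpl10 (edgeR quasi-likelihood test, Benjamini-Hochberg adjusted p = 0.335, 0.193 and 0.0661). Rpl3 also lost the call without control mouse 2 (-0.20) or surgery mouse 2 (-0.25), and Rpl10 without control mouse 1 (-0.29), control mouse 2 (-0.22) or surgery mouse 2 (-0.21).

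Along the exit tunnel, 1 of 3 members fell. Rpl39, a very small protein of the tunnel wall, was at 37.0 and 41.0 CPM in control and 26.7 and 26.8 CPM in surgery mice (log2 -0.55, SE 0.09). Rpl4, whose long loop lines the constriction of the tunnel, was at 408 and 402 CPM in control and 449 and 443 CPM in surgery mice, and did not pass the threshold (log2 0.14, SE 0.05). At the rim of the tunnel, 2 of 5 members fell, and all 5 log2 fold changes were negative, from -0.64 to -0.18. Over all genes tested, 12.8% fell and 49.1% were negative. The -0.64 belonged to Rpl35 (SE 0.21), which did not pass the threshold. Rpl35 and Rpl23a had low counts. Non-member genes sharing windows with Rpl23a had 139 and 97 counts in control and 349 and 357 in surgery mice. Those of Rpl35 had 60 and 62, and 111 and 120. The part of such genes was not tested. The members that fell, Rpl19 (log2 -0.53) and Rpl26 (log2 -0.38), lost the call with the length and GC trend removed (-0.31 and -0.23), where Rpl31 stood at 0.02.

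Other lower DEGs of the large subunit included Rpl36, Rpl37, Rpl38 and Rpl18. Rpl37, a short zinc-binding protein, was at 147 and 159 CPM in control and at 94.2 and 94.0 CPM in surgery mice (log2 -0.70, SE 0.07). Rpl38, which is known for its part in the translation of Hox mRNAs, was at 65.8 and 77.1 CPM in control and 45.5 and 44.9 CPM in surgery mice (log2 -0.66, SE 0.10). For both genes the surgery mice were nearly equal and below the controls. Rpl36 had a log2 fold change of -0.71 (SE 0.10), and 70.9% of its windows occur in another gene, the highest share of all members. Rpl18 had a log2 fold change of -0.64 (SE 0.07).

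Rpl41, which has the shortest coding sequence of all members at 75 bases, had by far the highest level per coding length, at 3483 CPM per kilobase in the control mice. It was at 247 and 276 CPM in control and 189 and 185 CPM in surgery mice (log2 -0.49, SE 0.07). Rplp1 was second at 959 CPM per kilobase of coding length. At the other end, the core members Rpl13a (6.85), Rpl23a (16.4) and Rpl35 (20.3) were listed with low control levels in CPM per kilobase of coding length. Exons of Rpl13a and Rpl23a overlap small nucleolar RNA genes, and Rpl35 and Rpl23a overlap genes on the opposite strand. Whether the counting used strand is not given in the sources used here, so their counts are uncertain.

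In the large subunit, Rpl29 and Rpl7 rose. Rpl29, a highly basic protein also found at the cell surface, was at 62.3 and 58.8 CPM in control and 81.6 and 78.6 CPM in surgery mice (log2 0.40, SE 0.07). Rpl7, an RNA-binding protein of the subunit's outer face, was at 145 and 144 CPM in control and 180 and 177 CPM in surgery mice (log2 0.31, SE 0.06). For both genes the groups were separated by more than the spread within them.

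Among the relatives of core members, Rpl3l, Rpl22l1 and Rps27l had low counts and wide errors, and Rpl7l1 was counted well, at 32.7 and 33.2 CPM in control and 38.1 and 36.6 CPM in surgery mice. Rpl3l was at 0.697 and 0.711 CPM in control and 0.439 and 0.296 CPM in surgery mice, and it did not pass the threshold (log2 -0.93, SE 0.47). Rpl22l1 had a log2 fold change of -0.18 (SE 0.20), Rps27l of -0.07 (SE 0.20) and Rpl7l1 of 0.18 (SE 0.08), and none of these passed. Of their core partners, Rpl3 fell (log2 -0.27) and Rpl7 rose (log2 0.31), as described, while Rpl22 (log2 0.03, SE 0.07) and Rps27 (log2 0.09, SE 0.12) did not pass the threshold.

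The filter left out Rpl24 and Rpl39l. Rpl39l, a paralog known from the testis, had 1, 0, 0 and 0 counts in control mice 1 and 2 and surgery mice 1 and 2. Rpl24, a core member, had 5, 1, 1 and 5 counts in the same order. Its exons overlap those of Gm28037 on the same strand, and 50.3% of its windows occur in another gene, so its level is uncertain.

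Mammalian ribosomal protein genes have many processed pseudogenes, so sequence shared with other genes was counted. A median of 16.6% of a tested member's windows occurred in another gene, and 32 members had more than 20%. The table lists 132 pseudogene rows named for 48 members, separate from the members' own rows. Their counts came to 3.12% of the members' counts in both control mice and to 3.30% and 3.39% in the surgery mice. Other genes that share windows with a member are not in these percentages. In control mouse 1, Rpl21 had 615 counts, its named rows 252 and all non-member genes sharing its windows 1845. For Rpl29 these were 1073, 4 and 515, and for Rpl8 4934, 0 and 0. With the named rows alone summed into the members, 26 large and 18 small subunit members fell. The part of the other genes with shared windows was not tested. The across-member rank correlation (Spearman, n = 80) of the log2 fold change with the shared percentage was 0.01.

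Across the whole transcriptome, the log2 fold change followed the GC content of the transcripts. The median of the members lay below that of all genes in each eighth of GC content. The lowest eighth held only 2 members, the next 3 and the highest 4, so the medians there rest on few genes. From the lowest to the highest eighth of GC content, the median over all genes tested went from 0.59 to -0.35. Tested members had a median GC content of 51.9%, close to the 50.2% of all genes. In the eighth from 48.0% to 50.2%, the 18 members had a median of -0.09 against 0.03 for all genes. In the eighth from 54.9% to 57.6%, the 14 members had a median of -0.55 against -0.26 for all genes. Among the members, Spearman's rank correlation of the log2 fold change with GC content was -0.45 (n = 80), and it was -0.67 over 14594 protein-coding genes. Genes share the 4 libraries and are not independent replicates.

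**Figure D2:**
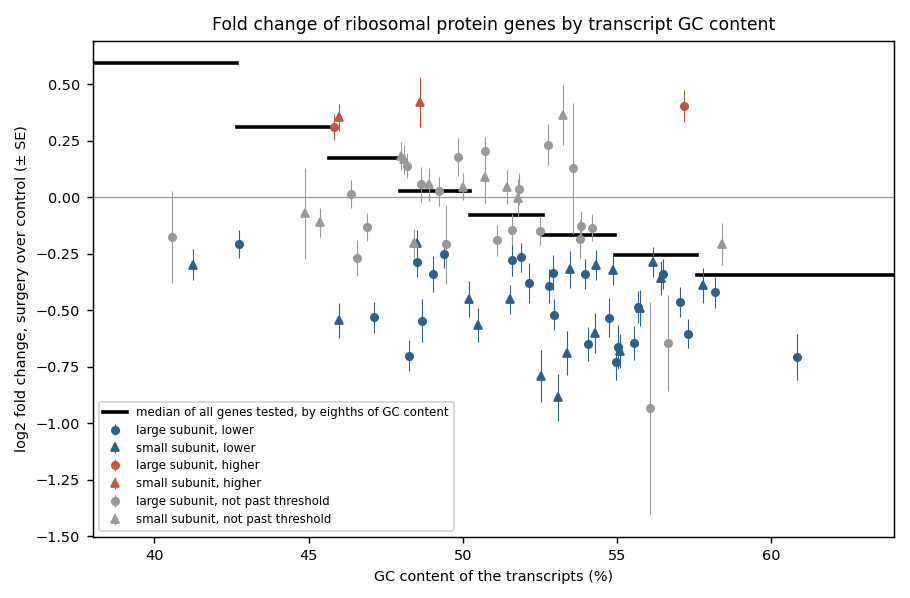
Log2 fold change with SE of each tested member (y axis) by GC content of its transcripts (x axis, percent), colored by the result of the edgeR test. Black bars give the median of all genes tested in each eighth of GC content, which goes from 0.59 to -0.35. The median of the members lies under the bar in each eighth, with only 2 members in the lowest and 4 in the highest.

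When each library's trend with transcript length and GC content was removed, 11 large and 8 small subunit members were lower and 1 member, Rpl29, was higher. In that fit 1.48% of all genes tested were lower and 1.43% higher. The medians became -0.18 and -0.12. The call was lost for 27 of the 43 lower members. Among these, Rps28 went from -0.69 to -0.49, Rpl38 from -0.66 to -0.41, Rps18 from -0.60 to -0.37, Rpl36 from -0.71 to -0.30, Rpl41 from -0.49 to -0.21 and Rpsa from -0.32 to -0.13. Of the 19 lower members, 16 were also lower without the correction, and the added ones were Rpl36a, Rpl17 and Rps15a, all with GC contents under 47%. Rps29 (log2 -0.70), Rps21 (-0.62), Rpl37 (-0.78) and Rps23 (-0.76) remained lower. Rps20, at a GC content of 41.3%, went from -0.30 to -0.78, and its call without the correction was lost without control mouse 1 (-0.28), control mouse 2 (-0.33) or surgery mouse 2 (-0.27). Rpl7 went from 0.31 to 0.09 and Rps24 from 0.35 to 0.15, and neither passed the threshold after the correction. Rpl29, at a GC content of 57.2%, went from 0.40 to 0.70. Among the stalk members, Rplp2 (-0.47) and Rplp0 (-0.36) remained past the threshold, and Rplp1 had a log2 fold change of -0.28 and did not.

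A correction with coding length and coding GC content in place of the transcript's, chosen after the data had been seen, left 21 large and 14 small subunit members lower, and 2 members higher, against 5.4% lower and 5.55% higher among all genes tested in that fit. Of the 35 lower members, 32 were among the members lower without correction.

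**Figure D3:**
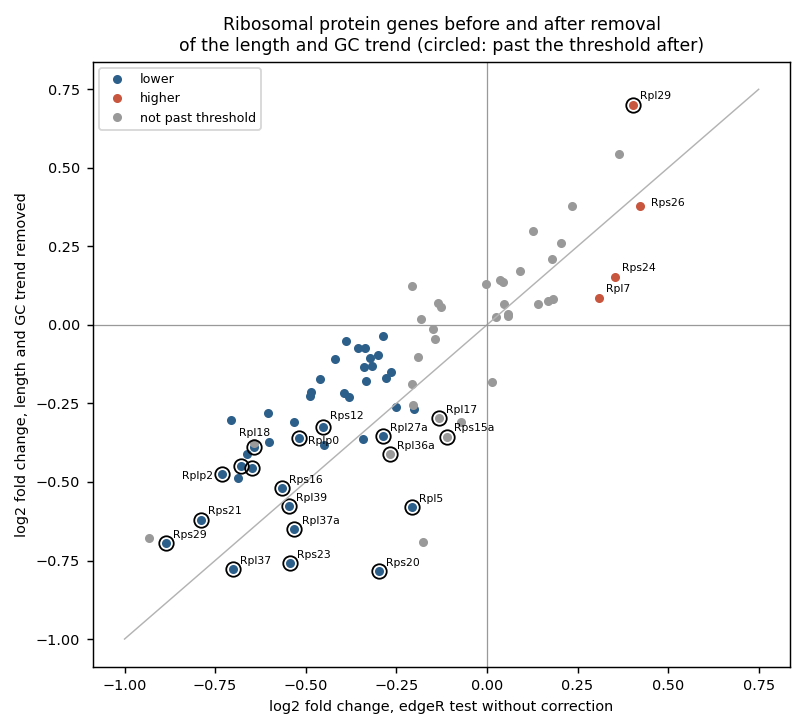
Log2 fold change of each tested member without correction (x axis) and with the trend in transcript length and GC content removed (y axis), with colors for the call without correction and circles for the 20 members past the threshold after it. The grey diagonal marks equal values, and 19 of the circled members are lower and Rpl29 is higher.

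Members with the shortest coding sequences had the lowest median. Of the 10 tested members with a coding sequence under 300 bases, 8 fell, 5 of them as DEGs, and the median was -0.60 on the log2 scale. Of the 46 members of at least 300 and under 600 bases, 24 fell and 3 rose (median -0.29). Of the 24 members of 600 or more bases, 11 fell and 1 rose (median -0.20). Among the tested protein-coding genes with a coding length, those under 300 bases had a median of -0.05 (294 genes, 21.1% lower). Those of at least 300 and under 600 bases had one of -0.03 (1508 genes, 15.3% lower). Those of 600 or more bases had one of -0.01 (12767 genes, 14.6% lower). With the transcript length and GC trend removed, the medians of the 3 classes of members were -0.53, -0.18 and -0.07. Across the members, Spearman's rank correlation with coding length was 0.28, and over all protein-coding genes it was 0.03.

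**Figure D4:**
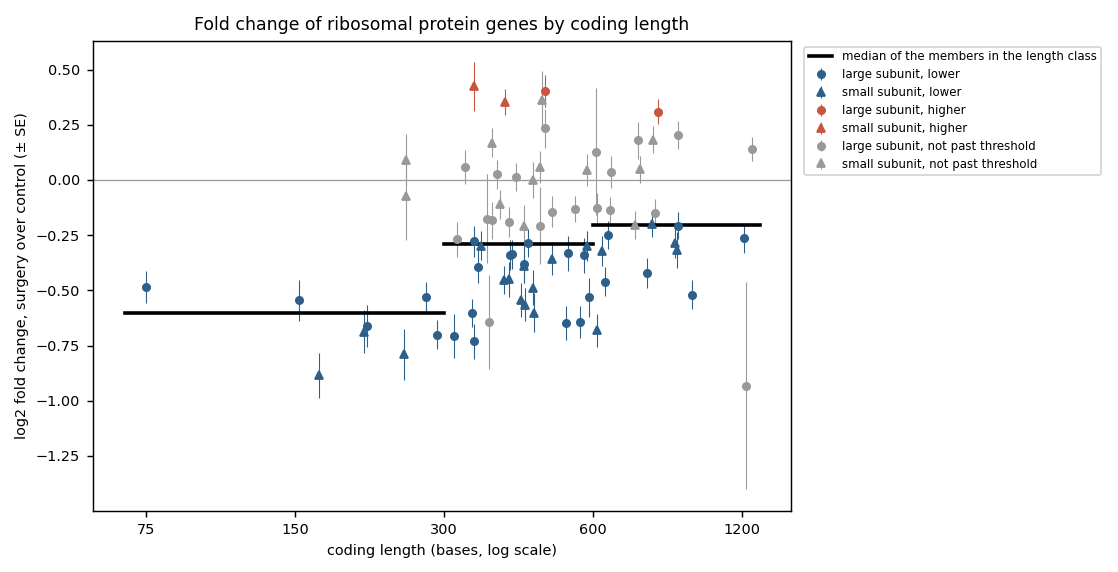
Log2 fold change with SE of each tested member (y axis) by coding length in bases (x axis, log scale), with black bars at the median of the members under 300 bases, from 300 to under 600 bases and of 600 or more bases. The bars stand at -0.60, -0.29 and -0.20, and 8 of the 10 shortest members are lower in surgery mice.

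Further letters in the promoters were counted in the 300-base windows around the annotated starts, on both strands. CCGGAAG, a core of sites for ETS factors, stood in 27 of 74 member windows (36.5%) and in 8.86% of all windows. It was in 16 of 34 windows of members that fell and in 9 of 35 of those that did not pass the threshold. AAGATGGC, a core of YY1 sites, stood in 8 member windows (10.8%, against 2.75% of all windows), and all 8 belonged to members that did not pass the threshold. The counts are of windows and not of genes. The 34 windows of members that fell came from 31 genes, and the 35 of those that did not pass came from 27. Windows of nearby starts of 1 gene overlap, so the same letters can be counted more than once. These counts are descriptions of the letters and were not tested.

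Other genes of the translation machinery moved in several directions. Some ribosomal proteins carry other symbols. Rack1, a scaffold protein on the head of the small subunit, was at 192 and 203 CPM in control and 132 and 127 CPM in surgery mice (log2 -0.61, SE 0.06), and it was a lower DEG. Fau, the precursor of Rps30, was at 137 and 148 CPM in control and 103 and 101 CPM in surgery mice (log2 -0.48, SE 0.07). Rack1 remained past the threshold with the length and GC trend removed (-0.54), and Fau did not (-0.13). Rpl36al failed the count filter.

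Of the 16 genes with TOP mRNAs that are not ribosomal proteins, 3 fell and 3 rose (18.8% each, where 12.8% of all genes tested fell and 13.1% rose), and the median was 0.09. Eef1a1, which delivers aminoacyl-tRNA, fell from 2373 and 2498 CPM to 2058 and 2061 CPM (log2 -0.24, SE 0.06), and Eef2, which moves the ribosome along the mRNA, fell from 1424 and 1554 CPM to 1103 and 1046 CPM (log2 -0.47, SE 0.07). Npm1, a nucleolar chaperone, rose from 87.8 and 91.6 CPM to 118 and 112 CPM (log2 0.36, SE 0.07), but its log2 fold change was -0.04 with the length and GC trend removed. In that fit Eef2 stood at -0.18 and did not pass the threshold, and Eef1a1 stood at -0.35 and did. The call of Eef1a1 was lost without control mouse 2 (-0.21). Tpt1 did not pass the threshold (log2 -0.16, SE 0.06).

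Of the 13 mTORC1 genes and TOP mRNA regulators, 6 fell and 1 rose (46.2% and 7.69%, median -0.23), where 12.8% of all genes tested fell and 13.1% rose. Mtor, the kinase itself, was at 163 and 186 CPM in control and 129 and 131 CPM in surgery mice (log2 -0.42, SE 0.08). Its partner Rptor (log2 -0.53, SE 0.08) and the TOP binding protein Larp1 (log2 -0.23, SE 0.06) also fell. Rps6kb1, which encodes S6 kinase, rose (log2 0.50, SE 0.08). Among the regulators that restrain mTORC1, Tsc2 (log2 -0.43) and Akt1s1 (log2 -0.28) fell. All 7 calls were lost with the length and GC trend removed, and the median of the list was -0.04. In that fit Tsc2 stood at -0.21, Akt1s1 at 0.13, Mtor at -0.21, Rptor at -0.25, Larp1 at -0.04 and Rps6kb1 at -0.16.

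Of 38 genes of ribosome biogenesis, 4 fell and 6 rose (10.5% and 15.8%, near the 12.8% and 13.1% of all genes tested, median 0.07). Ncl, a major nucleolar protein, rose from 145 and 143 CPM to 233 and 235 CPM (log2 0.70, SE 0.06) and was a DEG, and Grwd1 was a lower DEG (log2 -0.63, SE 0.12). Of 77 mitochondrial ribosomal proteins, 14 fell and 4 rose (18.2% and 5.2%, median -0.09). Of 64 genes with symbols of initiation and elongation factors, a list that also holds kinases, methyltransferases and binding proteins of these factors, 14 fell and 15 rose (21.9% and 23.4%, median -0.10), from Eef1a2, the neuronal form of the elongation factor (log2 -0.62, SE 0.07), to Eif3j1 (log2 1.12, SE 0.11). With the trend in length and GC content removed, 2 genes of biogenesis were higher, 2 mitochondrial ribosomal proteins were lower, and 2 of the factor genes were lower and 3 higher. In that fit 1.48% of all genes tested were lower and 1.43% higher. Ncl (0.34) and Eif3j1 (0.72) remained past the threshold, and Grwd1 (-0.31) and Eef1a2 (-0.23) did not. The medians of both subunits were lower than those of the TOP, mTORC1, biogenesis, mitochondrial and factor lists, and the difference between lists was not tested.

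**Figure D5:**
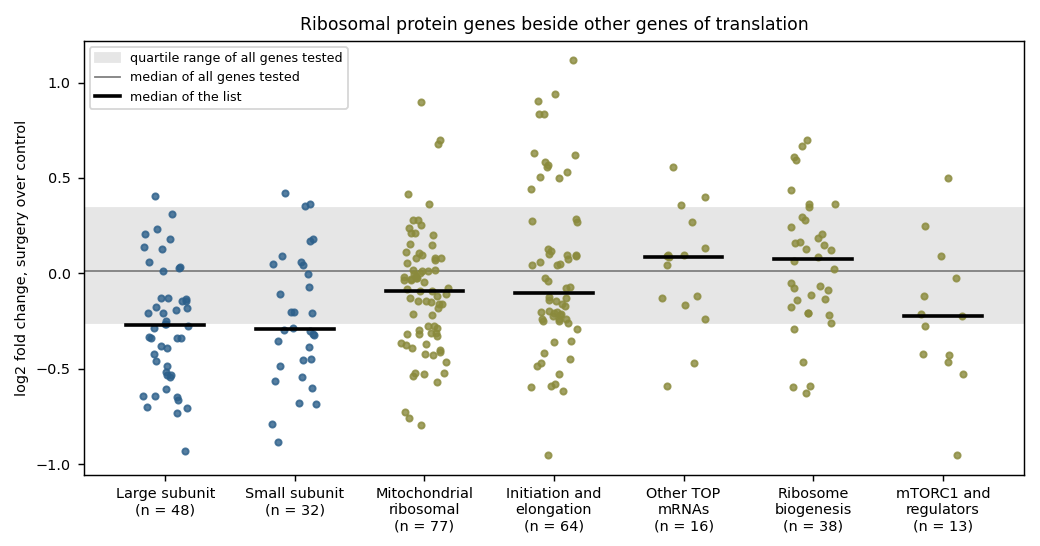
Log2 fold change of each tested gene (points, y axis) in 7 lists (x axis), with black bars at the list medians. The grey band and line give the quartile range and the median of all genes tested, and the bars of the large and small subunit stand at -0.27 and -0.29 beside 0.09 for other TOP mRNAs and 0.07 for ribosome biogenesis.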

How the data were processed

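Hippocampal poly(A) RNA of 2 control and 2 surgery mice was sequenced as paired-end reads on an Illumina NovaSeq. The authors mapped the reads to mm10 and deposited raw read counts per gene and mouse, without normalization. The submitters' processing notes name HISAT2 2.1.0, Bowtie2 2.2.3, TopHat2 and HTSeq 0.6.0 without their roles, and the use of strand is not given in the sources used here. The deposited table also holds the authors' own fold changes and p-values, which were not used.

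Counts of all genes were filtered with filterByExpr (minimum count 10), scaled by TMM (factors 0.982 to 1.02) and tested in R 4.3.3 with the quasi-likelihood F test of edgeR 4.0.16, condition being the only term, and adjusted after Benjamini-Hochberg across all 17144 tested genes. A gene fell or rose at an adjusted p under 0.05. CPM are TMM-scaled. The alternatives were size factors by the DESeq2 method, library totals only, the DESeq2 1.42.0 test, other count filters, the replicate number as a block, offsets for length and GC content (mgcv 1.9.3, basis 8), summed pseudogenes and leaving out each mouse. Lengths, GC contents, overlaps and shared 75-base windows came from GENCODE M21, which holds 29238 of the table's identifiers. The procedures were tested on simulated data.

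The members were defined by symbol, without expression values, but this group of genes and the other lists were chosen with earlier results of these data known. The text names members that were DEGs, the 5 largest falls and 3 largest rises past the threshold in each subunit, members chosen by role, paralogs and members that failed the filter. Genes named beyond that rule were chosen after their values were seen. Depth was 15763432 to 18573386 counts per mouse. Values of a few single genes are not reported here, and counts and medians include them.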

Additional observations from a re-analysis of the deposited data

How the results depend on the processing

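The medians of both subunits stayed negative under every alternative. Counts of lower members and lower DEGs have no direction that could change, and they differed between alternatives. With the length and GC trend removed, 11 large and 8 small subunit members were lower and 7 were lower DEGs, with medians of -0.18 and -0.12. The coding length and coding GC trend, chosen after the data had been seen, left 5 lower DEGs and a small subunit median of -0.21. Leaving out each mouse in turn gave 14 to 26 lower large subunit members, 10 to 18 lower small subunit members and 8 to 17 lower DEGs, with medians of -0.33 to -0.24 and -0.34 to -0.22. The lowest counts came without control mouse 2, and such fits have fewer samples. DESeq2 called 25 and 19 lower members, and no count filter 18 and 12. Library totals only gave 21 and 17, with 10.6% of all genes tested lower in that fit. For DESeq2, no count filter, summed pseudogenes, the replicate block and the lower DEGs of the alternatives, the share over all genes is not given here. Mice with the same number are not said to share an origin, and their deviations correlated at 0.22 over all genes, with only 2 pairs. With the replicate block 26 large and 18 small subunit members were lower, 12 of all members were lower DEGs, and the medians were -0.27 and -0.29. Over the 60 genes that the naming rule gave and 777 gene and setting pairs, 648 kept their direction and call, 113 lost the call, 4 gained it and 12 changed sign. Among these 60 genes, the sign changed with the length and GC trend removed for Rps19 (0.12), Rps6kb1 (-0.16) and Npm1 (-0.040), and with the coding trend removed for Rps27a (-0.26), Rps6 (-0.034), Rpl22 (-0.14), Eif3e (-0.046) and Npm1 (-0.19). It also changed for Rps27a without control mouse 1 (-0.0093), for Rps27l without control mouse 2 (0.036) or surgery mouse 1 (0.047) and for Rps27 without surgery mouse 1 (-0.057). The causes were not tested. With 2 mice a group, small changes and changes of genes with few counts can be missed, and a limit set by depth was not tested.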

Other observations

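Markers of other cell types were read beside the ribosomal protein genes. Among all genes tested, 12.8% fell and 13.1% rose. Of 8 neuron markers 2 fell and 2 rose, and these went from Tubb3, a neuronal tubulin (log2 -0.64, SE 0.12), to Map2, a dendritic cytoskeletal protein (log2 0.53, SE 0.06). Wfs1 (log2 -0.70, SE 0.12) and Fibcd1 (log2 -0.64, SE 0.06), markers of the CA1 field, fell, while Prox1, a marker of dentate granule cells, did not pass the threshold (log2 0.43, SE 0.13). Of 6 astrocyte markers 1 fell and 3 rose, with Aqp4, the water channel of astrocyte endfeet, at a log2 fold change of 0.73 (SE 0.10). P2ry12, a purine receptor of resting microglia, was the 1 of 7 microglia markers that rose (log2 0.84, SE 0.10). With the length and GC trend removed, these stood at -0.31 for Tubb3, 0.43 for Map2, -0.40 for Wfs1, -0.30 for Fibcd1, 0.26 for Aqp4 and 0.16 for P2ry12, and of these Map2 alone passed the threshold. Of 5 endothelial markers 1 rose, and of 4 neutrophil markers tested 1 fell, at summed levels of 2.07 to 14.8 CPM. The 6 oligodendrocyte, 5 choroid plexus and 3 red blood cell markers tested had median log2 fold changes of -0.24, -0.16 and 0.27, and none of them passed the threshold.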
